A study of Mus musculus with 28 samples.

Results

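The elastic fibre genes were described over 14 days of skin wound healing in mice. They were the 10 genes Eln, Fbn1, Fbn2, Fbln1, Fbln2, Fbln5, Mfap2, Mfap4, Mfap5 and Emilin1, chosen by name, among 29068 genes in the count table. All 10 passed the filter on low counts, as did 18107 genes in all, and the smallest count of any member in any library was 37. The RNA came from the dorsal skin of MLKL+/+ C57BL/6J mice, 8 weeks old, in which a full-thickness punch wound was left to heal without any other treatment. There were 28 libraries, 4 on each of Day0, Day3, Day5, Day7, Day10, Day12 and Day14, and Day0 was the control. The labels call the first time point Day0. The study's sampling days start with day 1, which its figure legends define as the day of the injury, and no Day0 is named there. By the study's methods, a sample took in the whole wound site with its scab and epithelial margins, and mice of both sexes were used in the study. How the Day0 tissue was taken is not described separately. The labels give no sex for a library, and in all 28 libraries Xist had 0 to 13 counts and the Y-linked Ddx3y 2101 to 3722. Every library thus had the pattern of male mice. Nothing in the labels says that libraries came from separate mice, so the p-values measure only the spread between these libraries, which may be technical.

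Elastic fibres give skin its recoil. Elastin, the product of Eln, is laid down as tropoelastin on a scaffold of fibrillin microfibrils and is then crosslinked by lysyl oxidases. Fibulins, microfibril-associated proteins and emilins bind fibrillin, elastin or both and take part in assembly. In skin these proteins are made mainly by dermal fibroblasts, and elastic fibres are known to return slowly and incompletely in scars.

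The total count was 36706513 to 40655764 per library (median 39499595). Levels are given as FPKM, counted fragments scaled to the gene's length and the library's total, which can be compared between genes. Fold changes come from edgeR's quasi-likelihood test on the counts, and a gene was said to rise or fall where the Benjamini-Hochberg adjusted p over all 18107 genes was under 0.05. The 4 Day0 libraries were not alike. The summed FPKM of 6 fibroblast markers (Col1a1, Col1a2, Col3a1, Pdgfra, Dcn and Lum) was 11799 and 11369 in replicates 2 and 3, but 5121 and 3048 in replicates 1 and 4. Replicates 1 and 4 had the higher sums of 5 epidermal markers (2946 and 3267, against 1594 and 1707) and of 5 skeletal muscle markers (14847 and 15523, against 9684 and 9985). All markers of these 3 lists had counts in every library. The biological coefficient of variation was 26.4% on Day0 and 5.70% to 10.8% on the wound days. The part of this spread in the comparisons with Day0 was not tested. Fold changes between wound days do not use the Day0 values, but all 28 libraries share 1 model, so the Day0 spread enters the errors and p-values of every test. Tests with only the 8 libraries of the 2 days compared are named, or counted among the alternative settings, where they change a call. In whole tissue, fewer cells of a type and less RNA per cell cannot be told apart.

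The promoters shown are those of Fbln1, Fbln5 and Mfap2, which was lower than Day0 on Day14, had the narrowest span of daily means, and fell on Day3 before it rose, respectively. They were also the members whose RefSeq window (build GRCm38.p6) lay upstream of the annotated gene apart from at most 6 bases. Each is the 250 bases before the start of transcription, 5′ to 3′ on the gene's strand. Capitals mark the motifs searched on both strands.
Fbln1, chr15:85205699-85205948, plus strand: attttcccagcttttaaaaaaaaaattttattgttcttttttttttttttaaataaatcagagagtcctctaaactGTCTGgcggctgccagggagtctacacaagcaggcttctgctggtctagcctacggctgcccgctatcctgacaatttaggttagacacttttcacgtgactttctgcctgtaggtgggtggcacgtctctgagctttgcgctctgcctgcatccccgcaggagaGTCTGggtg
Fbln5, chr12:101819120-101819369, minus strand: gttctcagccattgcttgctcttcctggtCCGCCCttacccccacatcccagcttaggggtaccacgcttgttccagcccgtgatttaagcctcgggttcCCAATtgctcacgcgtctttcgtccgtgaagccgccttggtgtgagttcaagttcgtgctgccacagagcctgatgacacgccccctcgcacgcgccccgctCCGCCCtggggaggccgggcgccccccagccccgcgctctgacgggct
Mfap2, chr4:141010174-141010423, plus strand: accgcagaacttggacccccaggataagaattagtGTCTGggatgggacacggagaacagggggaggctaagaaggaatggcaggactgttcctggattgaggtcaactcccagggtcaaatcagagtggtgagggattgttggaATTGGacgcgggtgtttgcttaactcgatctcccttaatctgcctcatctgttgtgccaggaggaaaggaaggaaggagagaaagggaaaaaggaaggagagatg
The motifs were the core promoter box TATAAA, the GC box GGGCGG, the NF-Y box CCAAT, the AP-1 motif and the Smad-binding motif CAGAC. No matches overlapped in the 3 sequences shown. Of the 10 members, 6 had an entry (Fbn1, Fbln1, Fbln2, Fbln5, Mfap2 and Emilin1). Among these 6, CAGAC was found in 3 members, GGGCGG in 3, CCAAT in 2, TATAAA in 0 and the AP-1 motif in 0. Over all 32851 windows of this length, CAGAC was found in 42.2%, GGGCGG in 32.7%, CCAAT in 33.8%, TATAAA in 12.4% and the AP-1 motif in 6.75%. These matches describe the letters only.

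The summed level of the 10 genes was 194 to 382 FPKM on Day0 and 294 to 314 FPKM on Day3. It was 485 to 524 FPKM on Day5, 675 to 776 FPKM on Day7 and 772 to 839 FPKM on Day10. It was 804 to 904 FPKM on Day12, which overlapped Day10, and 410 to 464 FPKM on Day14. FPKM carries no scaling for composition, and in the scaled counts the median log2 change of the members from Day10 to Day12 was -0.11, so no order is given to these days. The summed fibroblast markers were 4292 to 4918 FPKM on Day3, 7491 to 7948 on Day5, 10770 to 11091 on Day7 and 10486 to 11492 on Day10. The sum of 5 myofibroblast markers (Acta2, Tagln, Myl9, Cnn1 and Postn, all with counts in every library) was 371 to 650 FPKM on Day0, 257 to 277 on Day3, 595 to 622 on Day5, 1356 to 1471 on Day7, 1945 to 2014 on Day10, 1088 to 1171 on Day12 and 936 to 1005 on Day14. The part of these cells in the levels of the 10 genes was not tested. The Day0 and Day3 ranges of the 10 genes overlapped, while all libraries of Day7, Day10 and Day12 lay above those of the other days. The genes did not share 1 course. The highest mean FPKM was on Day3 for Emilin1, on Day5 for Fbn1 and on Day7 for Fbln1. It was on Day10 for Fbn2, Fbln2, Mfap2 and Mfap5, and on Day12 for Eln, Fbln5 and Mfap4. In the model of 28 libraries, most of these days were not separated from a neighbouring day. The test did not separate Day7 from Day5 for Fbn1 (adjusted p = 0.863) or Fbln1 (0.132). Nor did it separate Day10 from Day7 for Fbn2, Fbln2, Mfap2 and Mfap5 (0.292 to 0.81), or Day12 from Day10 for Eln, Fbln5, Mfap2 and Mfap5 (0.0546 to 0.819). In a joint test of the 6 wound days all 10 differed, as did 85.1% of all genes.

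**Figure D1:**
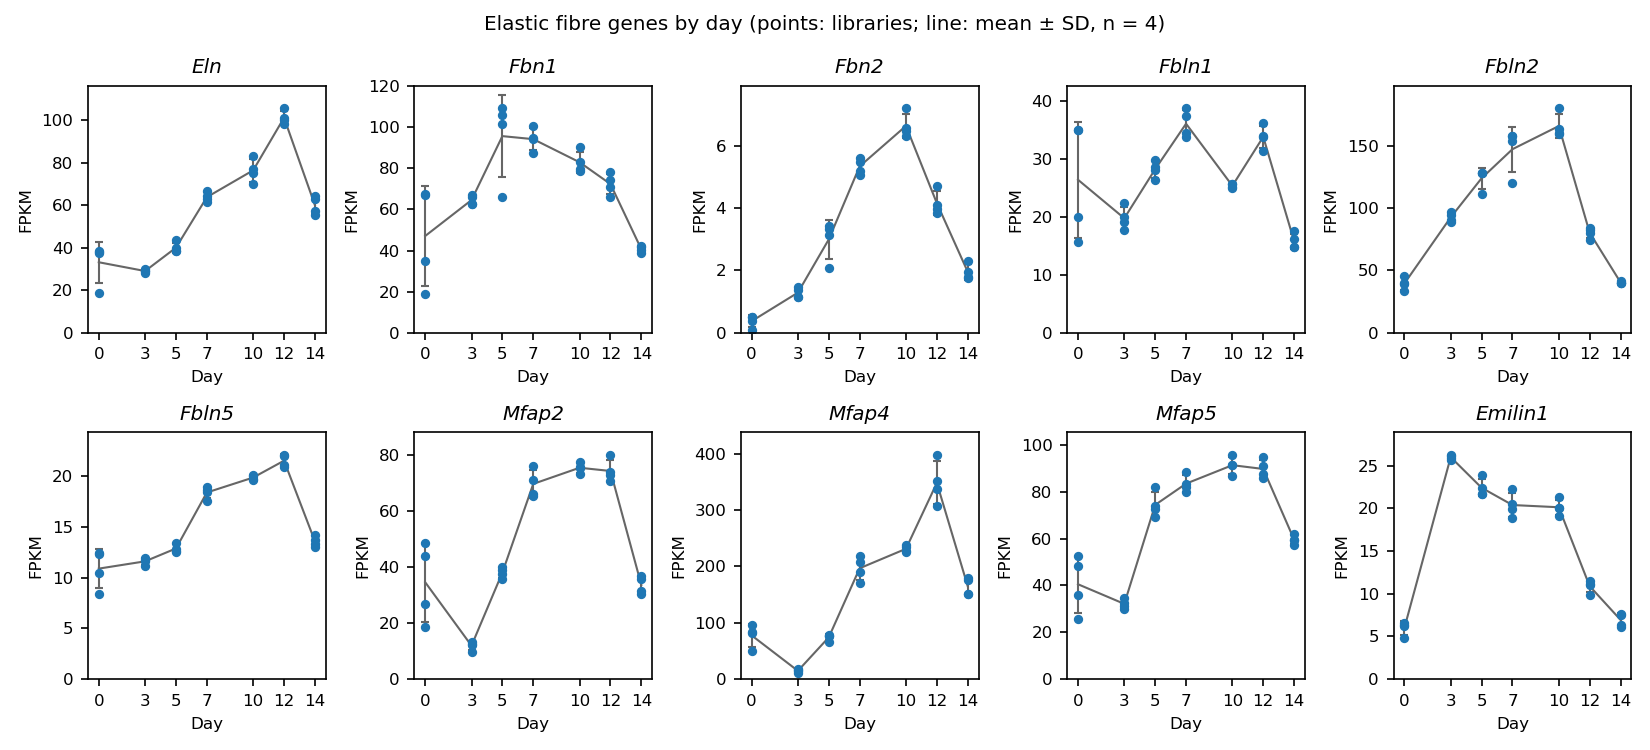
FPKM of the 10 elastic fibre genes (y axis, starting at 0, each panel on its own scale) against day (x axis); points are libraries, and the line gives the mean ± SD of 4 libraries. Emilin1 was highest on Day3 and Fbn2 on Day10, Eln and Mfap4 were highest on Day12, and in every panel the Day14 libraries lay below those of Day12.

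Each wound day was compared with Day0 to find which members had left the level of the control. On Day3, 4 members rose (Fbn1, Fbn2, Fbln2 and Emilin1) and 4 fell (Fbln1, Mfap2, Mfap4 and Mfap5), where 31.8% of all genes rose and 34.8% fell. The calls for Fbn1, Fbln1 and Mfap5 were close to the limit. They depended on single libraries, as given with each gene, and were lost in 3, 4 and 6 of 10 alternative settings. Markers of other cell types also differed from Day0 (summed FPKM of 5 genes each, all with counts in every library except among the neutrophil markers on Day14). Skeletal muscle markers were 2131 to 2770 on Day3 and at most 5699 on any wound day, below the lowest Day0 library (9684). Schwann cell markers were 148 to 282 on Day0, 31.6 to 34.9 on Day3 and at most 84.4 on any wound day. Smooth muscle and pericyte markers were 298 to 583 on Day0 and 181 to 206 on Day3, and overlapped Day0 only on Day10 (305 to 340). Macrophage markers were 202 to 299 on Day0, 549 to 584 on Day3 and 90.1 to 103 on Day14. Adipocyte markers were 935 to 1190 on Day0, 823 to 924 on Day3 and 1227 to 1332 on Day14. Endothelial markers were 106 to 136 on Day0 and 190 to 203 on Day3. Hair follicle markers were 97.6 to 705 on Day0, 1.41 to 4.34 on Day3 and 1835 to 2404 on Day14. Neutrophil markers were 16.5 to 63.6 on Day0 and 7622 to 9733 on Day3. They were 2689 to 3503 on Day5, 969 to 1805 on Day7 and 435 to 492 on Day10. The part of these cells in the comparisons with Day0 was not tested. The median log2 fold change on Day3 was 0.01 over the members and -0.03 over all genes. On Day5, 7 members rose and 0 fell (29% and 30.6% of all genes), with a median of 0.62. The Day5 count was 6 with no composition normalization or another filter, 5 with edgeR on the 8 libraries compared, and 6 to 8 with 1 library left out. On Day7 all 10 were higher than on Day0, where 25.6% of all genes rose and 24.8% fell, and the median log2 fold change of the members was 1.02. This count was 9 without Day0 replicate 1 or without Day0 replicate 4, and 8 with edgeR on the 8 libraries compared. On Day10, 9 rose and 0 fell (23.5% and 26.9% of all genes, median 1.14), and on Day12, 8 rose and 0 fell (21.7% and 25.6%, median 0.92). The Day12 count was 10 without Day0 replicate 2 or 3 and with limma on either FPKM scale. On Day14, 5 rose (Eln, Fbn2, Fbln5, Mfap4 and Mfap5) and Fbln1 fell (28.2% and 34.5% of all genes, median 0.14). The median over all genes was between -0.06 and 0.01 in each of these comparisons. By the criteria in the study's methods (a log2 fold change over 1.5 and an unadjusted p under 0.05), 2, 3, 3, 4, 2 and 1 members were higher on Day3, Day5, Day7, Day10, Day12 and Day14, against 6.5%, 5.61%, 4.66%, 4.33%, 3.89% and 5.15% of all genes. By these criteria Mfap4 on Day3 was the only member that was lower on any of these days, on which 12.4%, 8.31%, 4.74%, 5.14%, 3.51% and 8.83% of all genes were lower. All 4 libraries of a day lay above all 4 of Day0 for 3, 5, 9, 9, 8 and 5 members in the same order of days (25.2%, 21.1%, 20.4%, 23.4%, 29.2% and 30.2% of all genes), and on Day3 they lay below for Mfap2 and Mfap4 (31.1%).

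**Figure D2:**
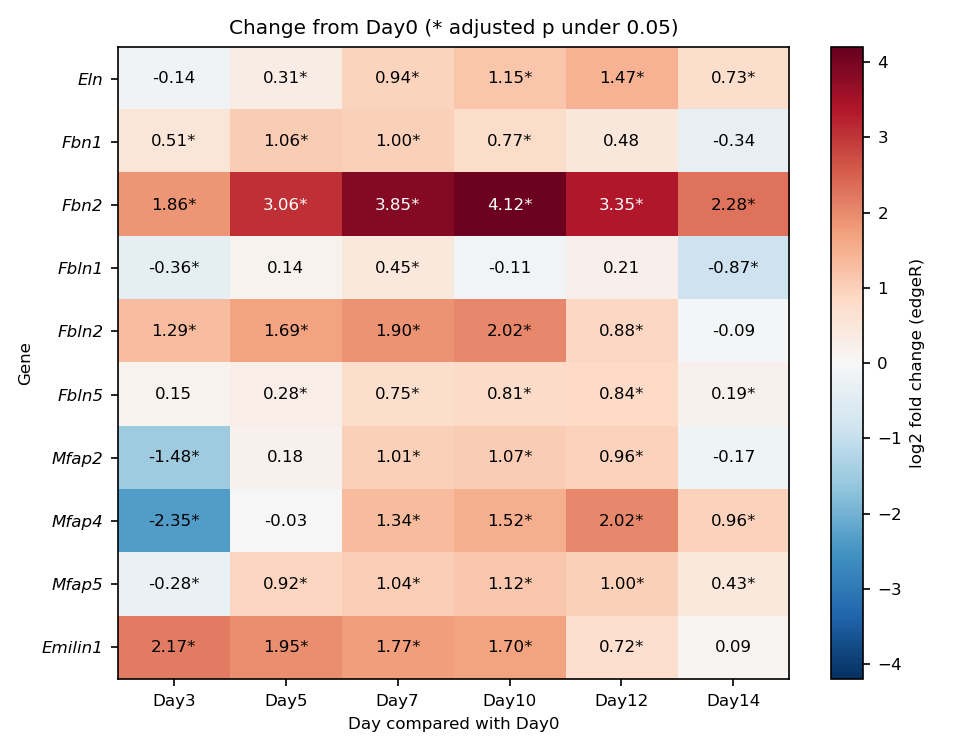
log2 fold change from Day0 (edgeR) for each gene (rows) and wound day (columns); red is higher and blue lower than on Day0, and an asterisk marks an adjusted p under 0.05. All 10 genes carry an asterisk on Day7, and the Day3 column holds both red (Emilin1, 2.17) and blue (Mfap4, -2.35).

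Eln encodes tropoelastin, the soluble precursor of elastin. Its FPKM was 37.6, 37.9, 38.4 and 18.6 in the Day0 libraries and 30.0, 29.1, 29.0 and 27.9 on Day3. The Day3 values lay within the range of Day0, and the log2 fold change was -0.14 ± 0.13 (SE, adjusted p = 0.359). Without Day0 replicate 4, the low library, it was -0.28 (adjusted p = 0.000433). The daily mean increased from Day3 to Day12. It was 62.9, 61.4, 64.2 and 66.8 FPKM on Day7, 70.2, 75.3, 83.2 and 77.1 on Day10, and 105.6, 98.1, 100.3 and 100.9 on Day12. The groups did not overlap, and Day12 was 2.76-fold above Day0 (log2 fold change 1.47 ± 0.13, adjusted p = 6.72e-10). Eln then fell to 57.1, 55.6, 64.4 and 63.0 FPKM on Day14, 1.66-fold below Day12 (adjusted p = 4.39e-05) and still 1.66-fold above Day0 (adjusted p = 2.04e-05). In the order of means (Day3, Day0, Day5, Day14, Day7, Day10, Day12), the neighbouring pairs Day7 and Day10 (adjusted p = 0.226) and Day10 and Day12 (adjusted p = 0.0546) did not pass the test. Day7 and Day10 passed in 2 of 10 alternative settings, voom (adjusted p = 0.0369) and edgeR on the 8 libraries compared (adjusted p = 0.00282). Day10 and Day12 passed in 6 of 10, those with DESeq2, no composition normalization, limma on either FPKM scale, voom and edgeR on 8 libraries (adjusted p = 7.67e-06 to 0.0369), and without Day10 replicate 3 (adjusted p = 0.0392). The rise of Eln on Day5 (0.31 ± 0.13, adjusted p = 0.0402) was lost without Day0 replicate 4, Day5 replicate 1 or Day5 replicate 4. It was also lost in 4 of 10 settings, those with no composition normalization (adjusted p = 0.0661), no filter on low counts (0.0504), at least 10 counts in every library (0.0505) and edgeR on 8 libraries (0.274).

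The fibrillins form the core of the microfibril. Fbn1, the main fibrillin of adult tissue, had 34.7, 67.6, 67.0 and 19.0 FPKM on Day0, and the libraries with low fibroblast markers were its low ones. It had 66.1, 66.9, 62.8 and 62.5 FPKM on Day3 and 109, 106, 102 and 66.0 FPKM on Day5. Its Day3 level lay just below that of Day0 replicates 2 and 3 and above replicates 1 and 4, and its rise on Day3 (0.51 ± 0.22, adjusted p = 0.0412) was lost without Day0 replicate 1 or without Day0 replicate 4 (0.44, adjusted p = 0.0851, and 0.30, adjusted p = 0.0781). It was 2.09-fold above Day0 on Day5 (log2 fold change 1.06 ± 0.22, adjusted p = 0.000156) and 1.70-fold on Day10 (adjusted p = 0.00484). On Day12, with 74.3, 66.3, 71.0 and 78.0 FPKM, the difference from Day0 did not pass (0.48 ± 0.22, adjusted p = 0.0748), but it did without Day0 replicate 2 (0.71, adjusted p = 0.0101) or replicate 3 (0.70, adjusted p = 0.0119). It also passed in 5 of 10 alternative settings, those with no composition normalization, the replicate block, voom and limma on either FPKM scale (0.55 to 0.80, adjusted p = 0.00708 to 0.037). With edgeR on 8 libraries the rises on Day7 and Day10 did not pass (adjusted p = 0.0538 and 0.107). On Day14 all libraries were low, at 40.1, 38.6, 42.3 and 41.5 FPKM, and Fbn1 fell by 0.82 ± 0.22 on the log2 scale from Day12 (adjusted p = 0.00357). Against Day0 the change was -0.34 ± 0.22 (adjusted p = 0.184), and without Day0 replicate 4 it was -0.52 (adjusted p = 0.00315).

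Fbn2 encodes the fibrillin that is prominent in development. It was the least abundant member, with 0.361, 0.507, 0.501 and 0.0941 FPKM on Day0, and the only one whose libraries on all 6 wound days lay above those of Day0 together with a call on every wound day at a log2 fold change over 1.5. It had 1.38, 1.46, 1.16 and 1.14 FPKM on Day3, 5.62, 5.49, 5.18 and 5.07 on Day7, and 6.47, 6.32, 7.20 and 6.57 on Day10. Every Day10 library was more than 10-fold above the highest Day0 library. The fitted change on Day10 was 17.4-fold (log2 fold change 4.12 ± 0.24, adjusted p = 6.44e-14), and it was between 3.81 and 4.32 on the log2 scale when 1 library was left out. It was 2.49 with limma on log2(FPKM + 1), where the added 1 is larger than any Day0 level. Fbn2 fell by 0.77 ± 0.20 from Day10 to Day12 (adjusted p = 0.00284) and by 1.07 ± 0.20 from Day12 to Day14 (adjusted p = 0.000109). With 1.79, 1.76, 1.96 and 2.30 FPKM on Day14, it remained 4.85-fold above Day0 (adjusted p = 2.19e-09).

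The make-up of the fibrillin transcripts was compared within each library, where the scaling of libraries cancels. These ratios were chosen after the values were seen and are given without a test. Fbn2 made up 0.752% ± 0.219 (SD, n = 4) of the summed fibrillin FPKM on Day0, 1.94% ± 0.174 on Day3 and 3.03% ± 0.0205 on Day5. Its share was 7.41% ± 0.197 on Day10 and 4.58% ± 0.461 on Day14, and the lowest library of each wound day was above the highest of Day0 (1.03%). Fbn1 therefore made up more than 90% of fibrillin FPKM in every library. Eln per Fbn1 was 0.449 ± 0.0117 on Day3 and 1.48 ± 0.0519 on Day14. On Day0 the ratio of Eln to Fbn1 was 0.800 ± 0.271, and each library was below every library of Day12 and Day14 (1.29 to 1.52).

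**Figure D3:**
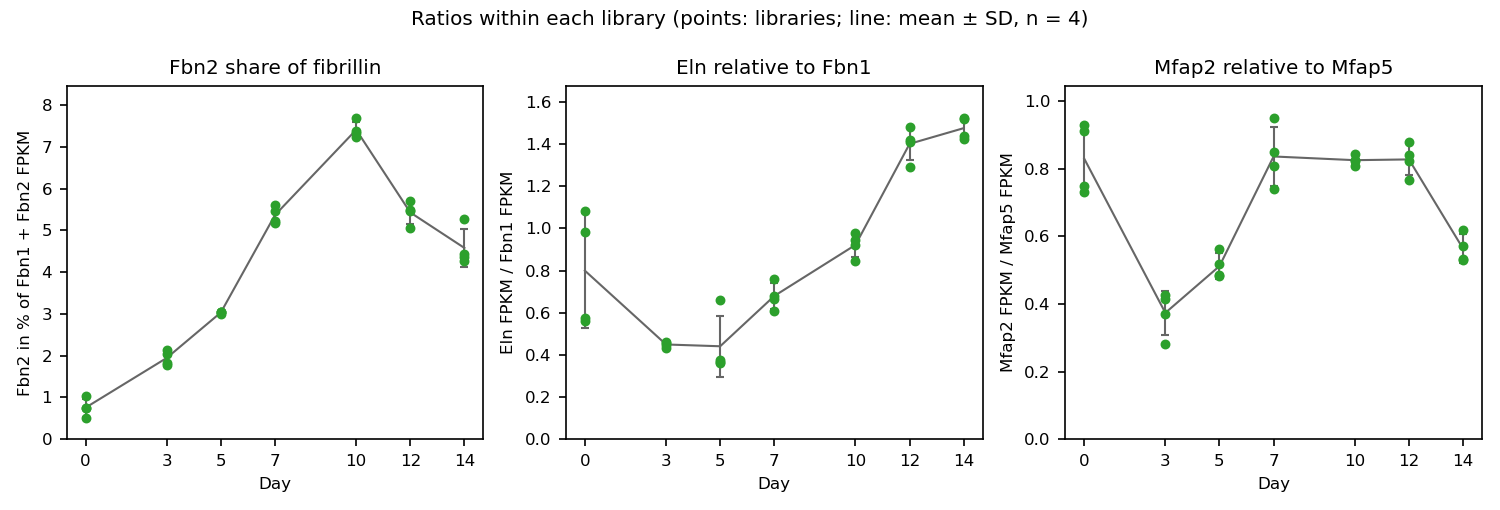
Ratios of FPKM within each library by day (points, libraries; line, mean ± SD, n = 4): Fbn2 in percent of both fibrillins, Eln per Fbn1, and Mfap2 per Mfap5, all from 0. The Fbn2 share was highest on Day10 (7.41%), Eln per Fbn1 was highest on Day14 (1.48), and Mfap2 per Mfap5 was lowest on Day3 (0.374).

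The microfibril-associated protein genes Mfap2, Mfap4 and Mfap5 were each called lower on Day3 and each rose from Day3 to Day5. On Day5 only Mfap5 among them was called higher than on Day0, and differences between the genes were not tested. Mfap4, a fibrinogen-domain protein that binds tropoelastin and fibrillin, had 96.2, 83.0, 82.1 and 49.0 FPKM on Day0 and 17.5, 15.9, 13.9 and 11.2 FPKM on Day3. All Day3 libraries lay below those of Day0, and Mfap4 fell 5.11-fold (log2 fold change -2.35 ± 0.15, adjusted p = 8.68e-14), the largest fall of a member against Day0. It had 66.4, 76.0, 78.3 and 75.8 FPKM on Day5, which overlapped Day0 (-0.03 ± 0.14, adjusted p = 0.882). It rose in each of the steps from Day3 to Day5 (5.02-fold, adjusted p = 4.07e-12), Day5 to Day7 (2.58-fold, adjusted p = 2.04e-08) and Day10 to Day12 (1.42-fold, adjusted p = 0.0051). On Day12 it had 398, 337, 351 and 306 FPKM, which made it the most abundant of the 10. It was then 4.06-fold above Day0 (log2 fold change 2.02 ± 0.14, adjusted p = 9.02e-12). With 151, 152, 180 and 177 FPKM on Day14, it was still 1.95-fold above Day0 (adjusted p = 1.15e-06). The span from the lowest to the highest daily mean was 23.8-fold for Mfap4, the widest of the members, and 1.98-fold for Fbln5, the narrowest. Mfap4 overlaps Mapk7 on the opposite strand, and the strandedness of the counting is not given in the sources used here. Mapk7 had 824 to 927 counts on Day3 and 868 to 963 on Day12.

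Mfap2 and Mfap5 encode the small microfibril proteins MAGP-1 and MAGP-2, which bind fibrillin. Mfap2 had 26.8, 44.1, 48.7 and 18.7 FPKM on Day0 and 13.3, 12.1, 12.5 and 9.75 FPKM on Day3. The groups did not overlap, and Mfap2 fell 2.79-fold (log2 fold change -1.48 ± 0.17, adjusted p = 2.01e-08). It had 35.6, 39.0, 37.6 and 39.8 FPKM on Day5, inside the range of Day0 (0.18 ± 0.17, adjusted p = 0.367), but passed without Day0 replicate 3 (0.38, adjusted p = 0.039) and was -0.02 without Day0 replicate 4. On Day10 it had 73.2, 75.2, 77.4 and 75.7 FPKM, all above Day0, a 2.10-fold rise (log2 fold change 1.07 ± 0.17, adjusted p = 4.55e-06). The steps from Day7 to Day10 and from Day10 to Day12 did not pass the test (adjusted p = 0.81 and 0.627). On Day14 it was back within the range of Day0, at 31.6, 30.5, 36.8 and 35.6 FPKM (-0.17 ± 0.17, adjusted p = 0.397), and without Day0 replicate 4 it was lower (-0.29, adjusted p = 0.0375).

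Mfap5 had 35.7, 48.4, 52.4 and 25.5 FPKM on Day0 and 31.3, 32.5, 30.1 and 34.6 FPKM on Day3. These overlapped, and its fall on Day3 (-0.28 ± 0.12, adjusted p = 0.0485) was lost in 7 of the 8 fits that left out 1 library, all but that without Day0 replicate 4 (-0.13 to -0.28, adjusted p up to 0.326). From Day3 to Day5 both rose, Mfap5 2.29-fold (adjusted p = 3.12e-08) and Mfap2 3.16-fold (adjusted p = 3.69e-08). The Day5 libraries of Mfap5, at 73.8, 69.2, 72.7 and 81.9 FPKM, were all above Day0, a 1.89-fold difference (log2 fold change 0.92 ± 0.12, adjusted p = 2.84e-07). After Day5 no change between successive days passed the test until it fell by 0.57 ± 0.12 on Day14 (adjusted p = 0.000364). Mfap2 per Mfap5 was 0.830 ± 0.104 on Day0, 0.374 ± 0.0657 on Day3, 0.512 ± 0.0377 on Day5 and 0.836 ± 0.0881 on Day7 (SD, n = 4), a ratio chosen after the values were seen. The 4 Day3 libraries (0.282 to 0.427) lay below every library of Day0 (0.732 to 0.929).

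The fibulins link microfibrils, elastin and cell surfaces. Fbln2, which binds fibrillin and tropoelastin, had 45.7, 39.8, 38.7 and 33.8 FPKM on Day0 and 94.3, 97.0, 88.8 and 91.0 FPKM on Day3. It was thus 2.44-fold higher on Day3, with no overlap (log2 fold change 1.29 ± 0.09, adjusted p = 2.22e-13). It had 160, 161, 181 and 164 FPKM on Day10, 4.05-fold above Day0 (log2 fold change 2.02 ± 0.09, adjusted p = 1.6e-16). It was 82.5, 74.8, 80.5 and 84.0 FPKM on Day12, 2.20-fold below Day10 (adjusted p = 1.91e-11), and 40.1, 40.3, 39.8 and 41.7 FPKM on Day14, within the Day0 range (log2 fold change against Day0 -0.09 ± 0.08, adjusted p = 0.342).

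Fbln1, a fibulin of elastic fibres and basement membranes, had its highest mean on Day7. It had 19.9, 35.0, 35.0 and 15.7 FPKM on Day0, 37.4, 34.5, 38.7 and 33.7 on Day7, and 25.2, 24.9, 25.6 and 25.8 on Day10. Day10 lay wholly below Day7 (fell by 0.56 ± 0.15, adjusted p = 0.00543), and no other member passed this step in the model of 28 libraries, where 14.3% of all genes rose and 18% fell. Fbln1 had 36.1, 31.4, 33.8 and 33.9 FPKM on Day12 and 14.7, 14.8, 17.5 and 16.1 FPKM on Day14, its lowest day. The Day12 libraries lay above those of Day10, but this step did not pass (0.33 ± 0.15, adjusted p = 0.0908). It passed in 5 of 10 alternative settings, those with no composition normalization (adjusted p = 0.0278), limma on either FPKM scale (0.0374 and 0.0373), voom (0.00187) and edgeR on 8 libraries (9.6e-07). Day12 against Day0 (0.21 ± 0.15, adjusted p = 0.257) passed with limma on either FPKM scale (0.0235 and 0.0224) and without Day0 replicate 2 or 3, and Day10 against Day0 (-0.11 ± 0.15, adjusted p = 0.57) passed without Day0 replicate 4 (-0.29, adjusted p = 0.0415). The Day14 libraries overlapped only the lowest Day0 library, and Fbln1 was 1.82-fold below Day0 (log2 fold change -0.87 ± 0.15, adjusted p = 1.88e-05). Its fall on Day3 (-0.36 ± 0.15, adjusted p = 0.0377) was lost in 6 of the 8 fits that left out 1 library, those without Day0 replicate 2 or 3 or any library of Day3 (-0.20 to -0.37, adjusted p up to 0.245). Its rise on Day7 (0.45 ± 0.15, adjusted p = 0.0155) was lost in 2 of them, those without Day0 replicate 1 (0.34) and without Day0 replicate 4 (0.27), and with edgeR on 8 libraries (adjusted p = 0.216).

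Fbln5, which carries tropoelastin to microfibrils and to cells, had the narrowest span. It had 10.4, 12.3, 12.5 and 8.39 FPKM on Day0, 18.7, 18.4, 18.9 and 17.6 on Day7, and 22.1, 21.1, 20.9 and 22.0 on Day12. Day3 did not pass against Day0 (0.15 ± 0.08, adjusted p = 0.0918), although it did in 5 of the 8 fits that left out 1 library (0.20 to 0.22, without Day0 replicate 2 or 3 or Day3 replicate 1, 2 or 3), and Day7 and Day12 lay wholly above it. The rise was 1.69-fold on Day7 (adjusted p = 4.1e-09) and 1.79-fold on Day12 (log2 fold change 0.84 ± 0.08, adjusted p = 1.04e-09). Fbln5 made its largest step up between Day5 and Day7 (1.39-fold, adjusted p = 2.66e-05) and fell 1.57-fold between Day12 and Day14 (adjusted p = 1.43e-07). The remaining rise on Day14 (0.19 ± 0.08, adjusted p = 0.0318) was lost in 1 of the 8 fits that left out 1 library, that without Day14 replicate 3, and with edgeR on the 8 libraries compared (adjusted p = 0.083). With the latter the rise on Day5 (0.28 ± 0.08, adjusted p = 0.00257) was lost too (adjusted p = 0.113).

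Emilin1, a glycoprotein at the interface of elastin and microfibrils that also restrains the processing of transforming growth factor beta, reached its highest mean first. It had 6.21, 6.61, 6.33 and 4.79 FPKM on Day0 and 26.1, 26.3, 25.7 and 25.9 FPKM on Day3. The Day3 libraries were close to each other and all above Day0, a 4.52-fold rise (log2 fold change 2.17 ± 0.09, adjusted p = 7.19e-18). From there the daily mean was lower on each later day. The steps from Day5 to Day7 (adjusted p = 0.11) and from Day7 to Day10 (adjusted p = 0.569) did not pass the test. Emilin1 had 19.1 to 21.3 FPKM on Day10 and 11.2, 9.82, 11.1 and 11.5 FPKM on Day12, a 1.97-fold fall (adjusted p = 3.48e-10). On Day14 it had 6.13, 6.38, 7.67 and 7.56 FPKM, which overlapped Day0 (0.09 ± 0.09, adjusted p = 0.393). It was called higher than Day0 with no composition normalization (0.21, adjusted p = 0.0249) and with limma on log2(FPKM + 1) and log2(FPKM + 0.1) (0.19 and 0.21, adjusted p = 0.0281 and 0.0241).

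The relative make-up of the 10 transcripts shifted with these courses. On Day3, Fbln2 held 30.6% and Fbn1 21.3% of the summed FPKM, and Mfap4 held 4.80%. On Day12, Mfap4 held 41.5%, Eln 12.1% and Fbln2 9.63%. Emilin1 held 8.57% on Day3 and 1.30% on Day12. These shares are means of 4 libraries and, as parts of 1 sum, are not independent.

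**Figure D4:**
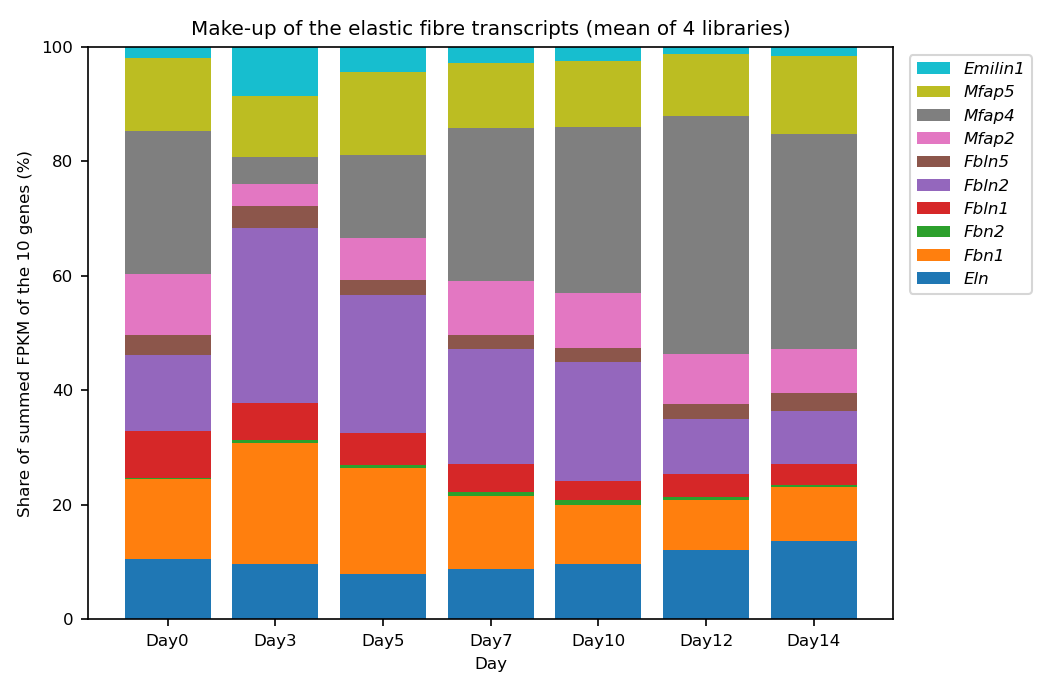
Share of each gene in the summed FPKM of the 10 elastic fibre genes (y axis, percent, mean of 4 libraries) on each day (x axis). Mfap4 went from 4.80% on Day3 to 41.5% on Day12, and Fbln2 from 30.6% to 9.63%.

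Steps between successive wound days were compared next. Their fold changes do not rest on Day0, although their errors do through the shared model. From Day3 to Day5, 7 members rose (Eln, Fbn2, Fbln1, Fbln2, Mfap2, Mfap4 and Mfap5) and Emilin1 fell, where 12.9% of all genes rose and 11.4% fell. The fall of Emilin1 in this step (-0.23 ± 0.08, adjusted p = 0.044) was lost without Day5 replicate 2 or 4, the rise of Fbln1 (0.50 ± 0.15, adjusted p = 0.0165) was lost without Day3 replicate 2 or 4, and Fbn1 (0.55 ± 0.22, adjusted p = 0.068) passed without Day5 replicate 4 (0.69, adjusted p = 0.0261), with voom (adjusted p = 0.00528) and with edgeR on 8 libraries (adjusted p = 0.00297). The fall of Emilin1 was also lost with no filter on low counts and with limma on log2(FPKM + 0.1) (adjusted p = 0.0638 and 0.0572). From Day5 to Day7, 5 rose (Eln, Fbn2, Fbln5, Mfap2 and Mfap4) and 0 fell (13.9% and 14.6% of all genes). Fbln2 (0.21 ± 0.08, adjusted p = 0.0655) passed this step in 4 of 10 alternative settings, those with at least 10 counts in every library, no composition normalization and limma on either FPKM scale (adjusted p = 0.0186 to 0.0455), and without Day7 replicate 4 (adjusted p = 0.00536). Fbln1 (0.31 ± 0.15, adjusted p = 0.132) passed it with voom (adjusted p = 0.0265) and with edgeR on 8 libraries (adjusted p = 0.00216). From Day7 to Day10, edgeR on 8 libraries also called Eln, Fbn2 and Mfap4 higher and Fbn1 lower (adjusted p = 0.000662 to 0.0174), and Fbn2 passed with voom and with limma on log2(FPKM + 1) as well (0.0251 and 0.0439). From Day10 to Day12, Mfap4 rose and 3 fell (Fbn2, Fbln2 and Emilin1), against 18.7% and 20.7% of all genes. Fbn1 also fell in this step with voom (adjusted p = 0.0459) and with edgeR on 8 libraries (adjusted p = 0.000151). Neutrophil markers were 435 to 492 FPKM on Day10 and 25.5 to 35.0 on Day12, and endothelial markers were 167 to 192 and 111 to 118. Smooth muscle and pericyte markers were 305 to 340 and 164 to 176, while hair follicle markers were 121 to 139 and 1847 to 2473. The part of these cells in this step was not tested. From Day12 to Day14 all 10 fell, with all Day14 libraries below all Day12 libraries for each of the 10, where 19.9% of all genes rose, 25.3% fell and 27.4% lay wholly below. The falls ranged from 1.49-fold for Mfap5 to 2.18-fold for Mfap2. The same 10 calls were made in every alternative setting that was run, including those that left out 1 library of either day, apart from the criteria of the study, by which 0 passed. The summed fibroblast markers were 8890 to 10017 FPKM on Day12 and 3550 to 3995 FPKM on Day14. Macrophage markers were 223 to 244 on Day12 and 90.1 to 103 on Day14, and adipocyte markers were 856 to 903 and 1227 to 1332. The part of these cells in the fall was not tested. By the study's criteria Mfap2 and Mfap4 rose from Day3 to Day5 and no other step of a member between successive days passed. Of all genes, 2.23% rose and 0.685% fell in this first step by these criteria, 2.5% and 1.16% from Day5 to Day7, 1.39% and 3.22% from Day7 to Day10, 3.47% and 2.54% from Day10 to Day12, and 0.79% and 2.78% from Day12 to Day14. Day14 and Day3, the ends of the wound series, were also compared directly. Eln, Mfap2, Mfap4 and Mfap5 were higher on Day14, and Fbn1, Fbln1, Fbln2 and Emilin1 were lower (34.2% and 32.8% of all genes, or 9% and 9.58% by the study's criteria). The call for Fbln1 (-0.50 ± 0.15, adjusted p = 0.00518) was lost with no composition normalization (-0.32, adjusted p = 0.0591) and with limma on log2(FPKM + 1) and log2(FPKM + 0.1) (adjusted p = 0.0797 and 0.0724). Fbn2 (0.42 ± 0.21, adjusted p = 0.0765) gained a call in 6 of 10 alternative settings, and Fbln5 (0.04 ± 0.08, adjusted p = 0.628) in 3. Mfap4 was 9.95-fold higher (log2 fold change 3.31 ± 0.15, adjusted p = 7.17e-17) and Emilin1 was 4.25-fold lower (log2 fold change -2.09 ± 0.09, adjusted p = 7.22e-18).

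**Figure D5:**
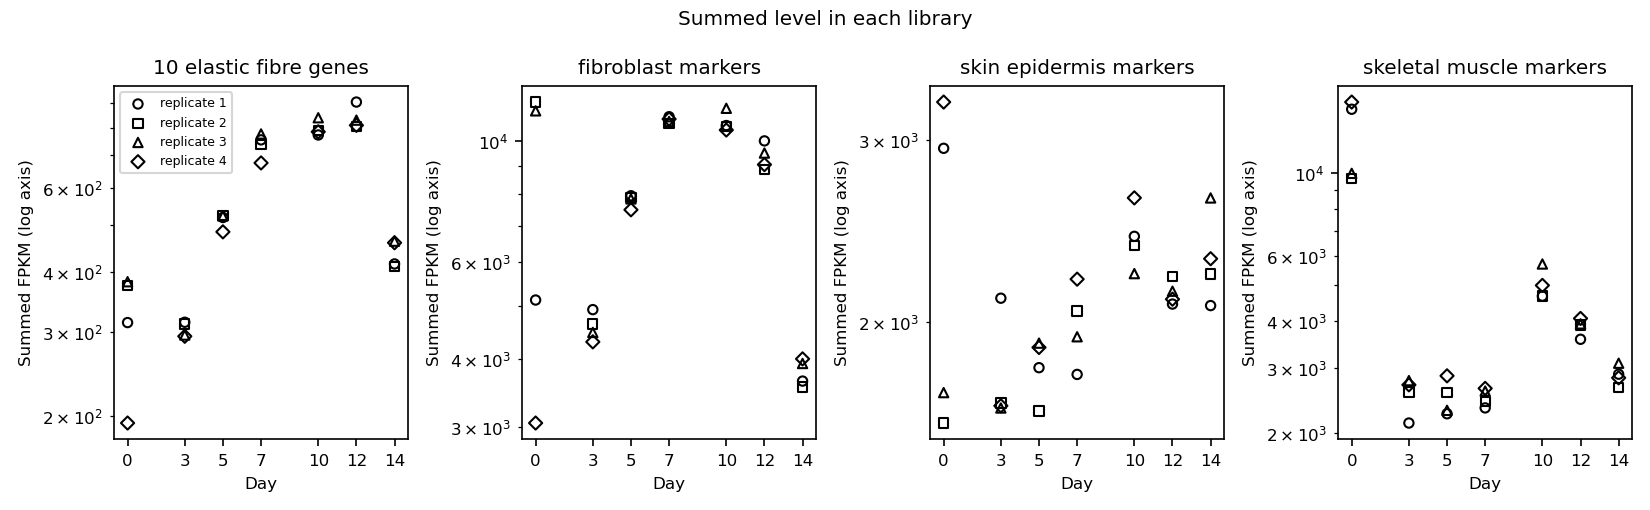
Summed FPKM (log axes) of the 10 elastic fibre genes, 6 fibroblast markers, 5 epidermal markers and 5 skeletal muscle markers in each library by day (symbols, replicate numbers). Day0 replicates 1 and 4 lie below replicates 2 and 3 for the fibroblast markers and above them for epidermis and muscle, and fibroblast markers are lower on Day14 (3550 to 3995) than on Day12 (8890 to 10017).

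Library replicate 4 of Day5 was low for Fbn1 (66.0 FPKM, the others 102 to 109), Fbn2 (2.07, the others 3.15 to 3.42) and Fbln2 (111, the others 128 to 129). It was high for Eln (43.5, the others 38.3 to 39.7). In this library the median of the longest 10% of genes was -0.30 on the log2 scale relative to the other Day5 libraries, and that of the shortest 10% was 0.25. The difference of these medians was -0.54 for Day5 replicate 4 and -0.22 for Day7 replicate 4, and between -0.13 and 0.22 for all other libraries. The gene length implied by the FPKM is 10126 bases for Fbn1 and 10716 bases for Fbn2, the longest members, and the part of length in these values was not tested.

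The genes that act on elastic fibres were counted from lists. Of 25 genes of assembly and crosslinking, 11 rose and 11 fell on Day3, 12 rose and 7 fell on Day10, and 5 rose and 14 fell on Day14. Beside this and the following lists, 31.8% of all genes rose and 34.8% fell on Day3, 23.5% and 26.9% on Day10, and 28.2% and 34.5% on Day14. The median log2 fold change of the 25 genes was 0.06, 0.42 and -0.49 on these days, and that of all genes was -0.03, -0.02 and -0.06. Lox and Loxl1, lysyl oxidases that crosslink elastin, were 3.01-fold and 2.45-fold higher on Day3 (adjusted p = 6.85e-09 and 6.93e-10). Lox was below Day0 on Day14 (fell by 0.63 ± 0.17, adjusted p = 0.00252), while Loxl1 was at 0.00 ± 0.12 (adjusted p = 0.993). Efemp2, the fibulin-4 gene, which brings lysyl oxidase to tropoelastin, was 1.88 ± 0.11 higher on the log2 scale on Day3 (adjusted p = 9.07e-15) and 1.21 ± 0.11 on Day10 (adjusted p = 2.27e-10). Ltbp4, a latent TGF-beta binding protein needed for elastic fibre assembly, fell by 1.46 ± 0.08 on Day3 (adjusted p = 5.26e-15) and by 0.54 ± 0.08 on Day10 (adjusted p = 2e-06). Its relative Ltbp2 rose by 1.12 ± 0.10 on Day3 (adjusted p = 1.08e-10) and was at 0.06 ± 0.10 on Day10 (adjusted p = 0.621). Fn1, fibronectin, on which microfibrils assemble, was at -0.13 ± 0.23 on Day3 (adjusted p = 0.64) and 0.99 ± 0.23 on Day10. The extremes of the list were Loxl3 (2.45 ± 0.10) and Emilin3 (-3.57 ± 0.60, 0 to 4 counts a library on Day3) on Day3, and Adamts17 (2.66 ± 0.19) and Mmrn1 (-2.12 ± 0.19) on Day10.

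Of 10 tested elastin-degrading enzymes, 3 rose and 3 fell on Day3, 4 rose and 2 fell on Day10, and 1 rose and 6 fell on Day14 (medians -0.01, 0.10 and -0.66). The counts on Day3 were close to the shares of all genes, 31.8% and 34.8%. The member of this list that was higher on Day14 was Mmp12, macrophage elastase, at 3.16 ± 0.35 (adjusted p = 1.16e-08), and it had been 3.74 ± 0.36 higher on Day10 (adjusted p = 1.69e-09). Mmp12 counts on Day0 were 2354, 375, 330 and 968, and on Day10 they were 13631 to 15939. Mmp9, a gelatinase that also cleaves elastin, was 1.81 ± 0.25 higher on Day3 (adjusted p = 4.5e-07). Elane, neutrophil elastase, had 13 to 19 counts on Day0 and 1 to 4 on Day3 (-2.62 ± 0.51, adjusted p = 6.17e-05), while the summed FPKM of 5 neutrophil markers was 7622 to 9733 on Day3 against 16.5 to 63.6 on Day0. The Elane counts are near the floor, and RNA counts do not measure the amount of elastase protein. Prtn3, proteinase 3, was the lowest of the list on Day10 (-1.38 ± 0.21, adjusted p = 3.36e-06).

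Of 7 inhibitors, 2 rose and 5 fell on Day3, 3 rose and 4 fell on Day10, and 0 rose and 3 fell on Day14 (28.2% and 34.5% of all genes on Day14, medians of the list -1.62, -0.76 and -0.46). Slpi, an inhibitor of neutrophil elastase, had 62 to 102 counts on Day0 and 5548 to 6118 on Day3, a log2 fold change of 6.30 ± 0.15 (adjusted p = 1.08e-22). Timp4, a metalloproteinase inhibitor, was the lowest on Day10 (-0.94 ± 0.21). A2m, a broad protease inhibitor, was the lowest of the list on Day3 and is counted among its 5 falls. It had only 0 to 4 counts on Day0 and 0 on Day3, so no fold is given. Of 12 receptors of elastin peptides, microfibrils and fibulins, 7 rose and 3 fell on Day3, 7 rose and 1 fell on Day10, and 0 rose and 7 fell on Day14 (medians 0.27, 0.24 and -0.18), beside the shares of all genes of 31.8% and 34.8%, 23.5% and 26.9%, and 28.2% and 34.5%. Itga5, the fibronectin receptor subunit, was highest on Day3 (1.77 ± 0.14) and Day10 (1.24 ± 0.13), and Itga8 was lowest on both (-2.75 ± 0.18 and -0.45 ± 0.16). Of the 3 TGF-beta genes, Tgfb1 rose on Day3 (1.13 ± 0.09) while Tgfb2 and Tgfb3 fell (-2.12 ± 0.14 and -1.10 ± 0.08). On Day10 Tgfb3 was the highest (0.75 ± 0.08), and on Day14 all 3 were below Day0.

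The pattern of each member over the 28 libraries was compared with that of all other tested genes by Pearson's r of log2 CPM, as a description. These libraries share days and tissue make-up. Fbln2 was most like Fkbp10 (r = 0.98), Pofut2 and P3h1, and Emilin1 was most like Adamts4 (r = 0.99), Ckap4 and Tnfrsf23. Fbn1 was most like Sec31a (r = 0.95), Serpinh1 and Sec24d, and Fbn2 most like Dbn1 (r = 0.93), Cdh11 and Col6a3. Eln was most like Epha3 (r = 0.94), Hc and Slc40a1, and Mfap4 most like Itgbl1 (r = 0.97), Akr1c14 and Atp6v1b1. Mfap2 was most like Sulf2 (r = 0.98), Aspn and Islr, and Mfap5 most like Col14a1 (r = 0.97), Fap and Cd248. Fbln1 was most like Adamts2 (r = 0.95), Shc2 and Poglut3, and Fbln5 most like Tspan11 (r = 0.96), Ppic and Frem1. Between members, r over the 28 libraries ranged from -0.33 to 0.91 in the 45 pairs, with a median of 0.60, and 3 pairs were below 0. Over the 24 wound libraries it ranged from -0.53 to 0.96, with a median of 0.63, and 9 pairs were below 0.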

How the data were processed

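Total RNA of skin at the wound site was sequenced by the authors (TRIzol extraction, VAHTS Universal V6 library kit). The authors deposited raw read counts per gene symbol and FPKM values of the same 28 libraries. Each FPKM equals the count divided by a constant gene length and the library total, so it holds no further information. The submitters' processing notes name fastp, R 3.2.0 and the build mm10, and the aligner, counter, annotation and strandedness are not given in the sources used here, so reads of overlapping genes (Mfap4 and Mapk7, Eln and Gm30003) cannot be told apart. Gene positions for windows and overlaps came from GENCODE M21 and RefSeq on GRCm38, the same build as mm10.

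Two-sided quasi-likelihood tests used edgeR 4.0.16 under R 4.3.3, with TMM factors and filterByExpr, in 1 model of 28 libraries in 7 groups that left 21 residual degrees of freedom, with Benjamini-Hochberg adjustment over 18107 genes. The fit was tested on simulated data for Day3 against Day0, in which edgeR called 79 of 100 genes changed 2-fold and 88 of 100 changed 4-fold, with 10 false calls among 17738 genes tested. Only these genes were changed, and every simulated day had the same dispersion for a gene. In the data the biological coefficient of variation was 26.4% on Day0 and 6.23% on Day3. The simulated numbers therefore do not measure the error rates of the comparisons with Day0. Alternatives were other size factors, other filters, a replicate block, DESeq2 1.42.0, limma 3.58.1 on log2(FPKM + 1) and log2(FPKM + 0.1), voom with quality weights, edgeR on the 8 libraries compared, and each library left out. Log2 CPM used a prior count of 2. Total counts were 36706513 to 40655764, and no pair of replicates agreed within counting noise (lowest median chi-square 1.48, 0.455 for noise alone).

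The genes named were the 10 members, 8 fixed pathway genes (Lox, Loxl1, Efemp2, Ltbp2, Ltbp4, Fn1, Mmp12 and Elane), the called extremes of each list on Day3 and Day10, and the 3 genes most like each member. Other genes named were chosen after their values were seen. The members and lists were chosen with earlier results of these data known. Over all tested genes, the replicate numbers did not in general pair the libraries.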

Additional observations from a re-analysis of the deposited data

Results flagged for a closer look

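Within each day, a library was singled out where its distance from the nearest of the other 3, divided by the range, was over Dixon's 95% limit for 4 values. This was so in 5 of 70 gene and day groups, where chance gives about 3.5. Eln was 6.24 log2 CPM in Day0 replicate 4, with the others at 7.27 to 7.28. Emilin1 was 4.25 log2 CPM in the same library, with the others at 4.63 to 4.71. Fbn1 was 9.48 log2 CPM in Day5 replicate 4, with the others at 10.07 to 10.19, and Fbln2 was 9.20 in that library, with the others at 9.38 to 9.40. Fbln2 was 9.23 log2 CPM in Day7 replicate 4, with the others at 9.61 to 9.66. Every one of the 5 low values came from a library numbered 4. Day0 replicate 4 also had the lowest sum of fibroblast markers of Day0, and Day5 and Day7 replicate 4 had the lowest values of long genes relative to short ones on their days.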

How the results depend on the processing

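Of 1200 gene results under alternative settings, 1116 kept their direction and side of the threshold, 27 lost the call, 47 gained it and 10 changed sign. Of 960 with 1 library left out, these numbers were 907, 25, 17 and 11. The members lower on Day3 were 2 with limma on log2(FPKM + 1) or log2(FPKM + 0.1), with voom and with edgeR on the 8 libraries compared, and 2 to 5 with 1 library left out. Lower on Day10 and Day14 against Day0 were 0 to 1 and 1 to 3 with 1 library left out, the higher number without Day0 replicate 4. Lower from Day3 to Day5 were 0 without a filter or with log2(FPKM + 0.1), and 0 to 1 with 1 library left out (0 without Day5 replicate 2 or 4). Higher from Day7 to Day10 were 1 with log2(FPKM + 1), 2 with voom and 3 with 8 libraries, and lower were 2 with 8 libraries. Higher from Day10 to Day12 were 3 with no composition normalization, limma on either FPKM scale, voom and 8 libraries, 2 with DESeq2, and 1 to 2 with 1 library left out (2 without Day10 replicate 3). By the criteria of the study, 2 were higher and 1 lower on Day3, 3, 3, 4 and 2 were higher on Day5, Day7, Day10 and Day12, and 1 was higher and 0 lower on Day14. By the same criteria 2 were higher and 0 lower from Day3 to Day5, 0 higher from Day5 to Day7, 0 lower from Day7 to Day10, 0 higher and 0 lower from Day10 to Day12, 0 lower from Day12 to Day14, and 1 higher and 1 lower on Day14 than Day3.

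All sign changes were of values not called in the reported fit. Fbln1 on Day10 was 0.023 and 0.027 with limma on log2(FPKM + 1) and log2(FPKM + 0.1), Mfap2 on Day14 was 0.052 and 0.057, and Fbn1 from Day5 to Day7 was 0.0036 and 0.0039. Fbln2 on Day14 was 0.041 and 0.042 with these, and 0.034 with no composition normalization. Mfap4 on Day5 was 0.013 with voom. With 1 library left out, Fbln1 ranged from -0.032 to 0.30 on Day5 and from -0.29 to 0.054 on Day10, Mfap2 from -0.015 to 0.38 on Day5 and from -0.29 to 0.087 on Day14, Mfap4 from -0.18 to 0.11 on Day5, Fbln2 from -0.10 to 0.067 on Day14, and Fbn1 from -0.20 to 0.0074 between Day5 and Day7. No composition normalization moved the median of all genes by 0.14 on Day12 and 0.13 on Day14. Fbn1 on Day3, Day7 and Day10 was not called with edgeR on 8 libraries. The cause was not tested.

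Over all tested genes, same-numbered libraries did not in general deviate together (correlations from -0.08 to 0.18, median -0.00 over 84 pairs). Libraries with other numbers had correlations from -0.11 to 0.10 (median 0.00 over 252 pairs). Of 28 libraries, 8 correlated best with their own number. With the replicate number as a block, Mfap5 on Day3 was -0.27 and lost its call, and Fbn1 on Day12 was 0.55 and gained one.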
